A study of Rattus norvegicus with 12 samples.

Results

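Mki67, Cdk1 and Pcna, 3 genes used as markers of cell proliferation, were followed in rat hearts after surgery. They were taken by Ensembl ID (Mki67, ENSRNOG00000028137; Cdk1, ENSRNOG00000000632; Pcna, ENSRNOG00000021264), and all 3 were present among the 19955 genes of the deposited table. All animals were wild-type rats of the Sprague Dawley strain. They had undergone surgery without an infarct (sham), an operation that caused a myocardial infarction (MI), or infarction with a cardiac patch stitched to the infarct's edge with silk thread (Patch). The age of the animals, the time after surgery, the sampled region and the make-up of the patch are not given in the sources used here. The labels list 4 samples per group, and 2 sham, 4 MI and 4 Patch columns of the table carried those groups' names. Columns ctrl1 and ctrl2 match no label and were not used. If they are sham samples, every comparison with sham below rests on 2 of 4 sham libraries and could change with all of them. Nothing says whether the samples of a group came from separate animals, so the p-values measure only the spread between these libraries.

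A dividing cell copies its DNA in S phase and separates the copies in mitosis. Pcna encodes the ring-shaped clamp that holds DNA polymerases on the template during replication and also serves in DNA repair, so it is made outside division as well. Cdk1 encodes the kinase that, with A- and B-type cyclins, drives entry into mitosis. Mki67 encodes Ki-67, a protein that coats mitotic chromosomes and is widely used to mark cycling cells. Adult heart muscle cells rarely divide, whereas leukocytes, fibroblasts and endothelial cells are known to divide in a healing infarct. In RNA from whole tissue, a change in the number of cells that express a gene and a change in the RNA per cell cannot be told apart.

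The promoters are shown because Mki67 and Cdk1 were more alike between libraries than either was to Pcna. Whether these sequences bear on that pattern was not tested. Each run is the 250 bases before the gene's start in RefSeq on the build GRCr8, written 5′ to 3′ on the gene's own strand. The windows lie at chr1:199952594-199952843 (minus strand) for Mki67, at chr20:19265043-19265292 (plus strand) for Cdk1 and at chr3:139955821-139956070 (minus strand) for Pcna. Capitals mark matches, on either strand, to the cell cycle genes homology region or CHR (TTTGAA or TTCGAA), to an E2F site (TTTGGCGC, TTTCCCGC, TTTGCCGC or TTTCGCGC) and to the CCAAT box (CCAAT).
Mki67: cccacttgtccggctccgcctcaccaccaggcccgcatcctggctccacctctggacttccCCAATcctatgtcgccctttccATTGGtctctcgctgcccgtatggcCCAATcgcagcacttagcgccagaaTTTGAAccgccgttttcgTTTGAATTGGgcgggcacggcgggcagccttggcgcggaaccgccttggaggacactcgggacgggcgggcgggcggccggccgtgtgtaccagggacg
Cdk1: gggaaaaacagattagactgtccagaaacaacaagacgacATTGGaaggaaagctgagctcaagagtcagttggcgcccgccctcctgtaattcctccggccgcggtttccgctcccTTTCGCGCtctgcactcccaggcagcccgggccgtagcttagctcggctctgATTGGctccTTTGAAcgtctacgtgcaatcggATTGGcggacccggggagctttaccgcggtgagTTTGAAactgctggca
Pcna: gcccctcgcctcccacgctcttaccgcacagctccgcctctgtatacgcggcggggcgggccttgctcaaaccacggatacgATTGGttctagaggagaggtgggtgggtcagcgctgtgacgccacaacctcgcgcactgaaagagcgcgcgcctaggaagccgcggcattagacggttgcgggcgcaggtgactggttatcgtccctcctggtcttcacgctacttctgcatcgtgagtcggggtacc

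The Mki67 window held 2 CHR matches and 4 CCAAT matches, and the CHR match nearer the start shared its last base with a CCAAT match on the opposite strand. The Cdk1 window held 2 CHR matches, 3 CCAAT matches and 1 E2F match. The CHR matches began 117 and 99 bases before the start in Mki67 and 72 and 16 bases before it in Cdk1. The Pcna window held 1 CCAAT match, 168 bases before the start, and none of the CHR or E2F letters searched. Of 33469 RefSeq promoter windows of this length, 17.4% held a CHR match, 34% a CCAAT match, 6.31% both of these, and 1.73% an E2F match. These are matches of letters only and were not set against any binding data. The deposited counts were made on another build, rn6 per the submitters' processing notes, and no position was carried between the builds.

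Values are given as normalized signal, which is a gene's read count divided by one factor per library. Totals were 12181733 and 12220833 reads in sham, 12932419 to 14110864 in MI and 11420710 to 12565137 in Patch. The library MI2 stood apart from its group before any of the 3 genes was considered: 5474 genes were at 0 in it, against 2400 to 2736 in the other MI libraries, and genes with a single read numbered 169 in it and 632 to 979 elsewhere. Genes with 2 to 6 reads numbered 356 in MI2 and 1782 to 1962 elsewhere. On the first principal component of all tested genes (35.4% of the variance), sham2 and sham1 were at −61.0 and −55.4 and MI2 at −32.2, whereas the other MI libraries were at 77.3 to 101.5. On the second component (20.65% of the variance) MI2 was at 136.0, apart from all other libraries, which were at −28.65 to 7.295. On the first component P699 lay at 6.25, away from the other Patch libraries at −50.9 to −33.9. The limma differences are therefore given with and without these libraries, while spreads, likeness between genes and counts of libraries' order are given over all 10 libraries only. Markers of heart muscle and of other cell types were not analysed here, because the table lists genes by ID only. Their part in the values below was not tested.

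Mki67 was high in 2 of the 4 MI libraries and low in the others. Its signal was 943 in MI162 and 839 in MI165, and 141 in MI1 and 131 in MI2. It was 201 and 37.5 in sham1 and sham2, and 180, 128, 231 and 112 in P695, P697, P699 and P985. MI162 and MI165 thus lay above the other 8 libraries, the highest of which was P699, while MI1 and MI2 lay below sham1 and within the Patch range. The sham libraries differed from each other by 5.36-fold. What made that gap was not tested. In units of signal, the exact 95% Poisson interval was 173 to 232 for the 181 reads of sham1. For the 34 reads of sham2 it was 26.0 to 52.4. Such intervals, here and in the plot of signal by library, cover counting error only, because reads without molecular identifiers are not independent molecules.

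**Figure D1:**
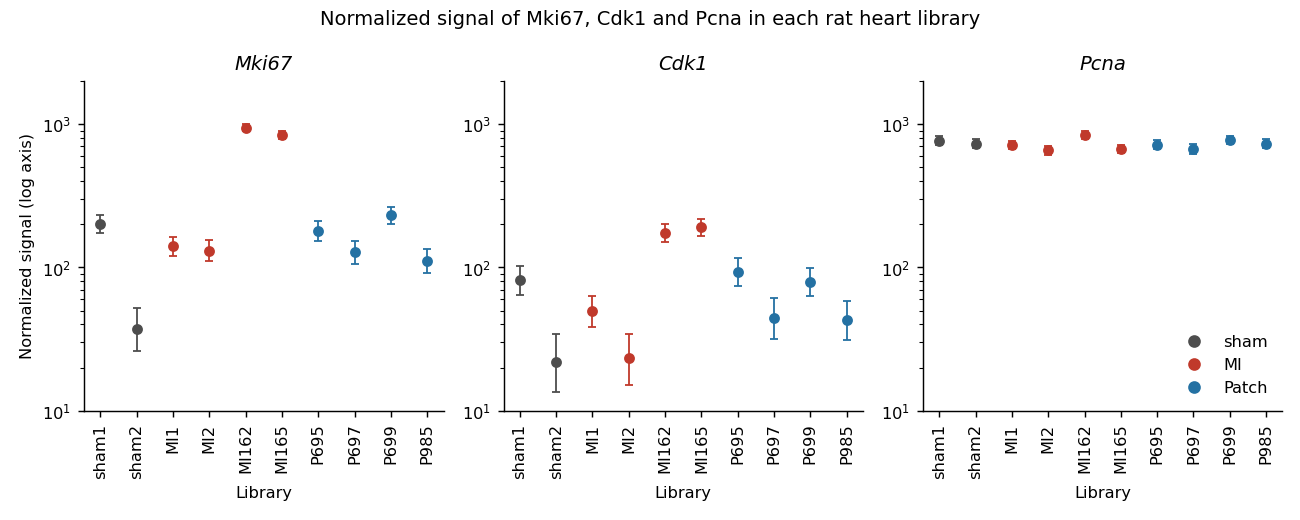
Normalized signal (log axis) of Mki67, Cdk1 and Pcna in each of the 10 libraries, coloured by group, where bars are exact 95% Poisson intervals of the read counts. Mki67 and Cdk1 are highest in MI162 and MI165, at 943 and 839 and at 174 and 190, and lowest in sham2, while Pcna stays between 655 and 842 in all 10 libraries.

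The comparison of MI with sham asks which genes differ after infarction. Mean Mki67 signal was 514 ± 438 (SD, n = 4) in MI, against 119 ± 116 (SD, n = 2) in sham, a ratio of 4.31. The groups overlapped, as they did for Cdk1 and Pcna, while the values of MI and sham did not overlap in 35.8% of the genes tested. On the log2(signal + 1) scale the difference was 1.98 (SE 0.87, 95% interval 0.07 to 3.90), with an unadjusted p of 0.0433 and a limma adjusted p of 0.147. It therefore did not pass the threshold of 0.05 over all 17091 genes tested, of which 2636 (15.4%) were called. That background moved widely with single libraries, to 7 genes without sham1, 24 without sham2, 1448 without MI162 and 4979 without MI2. Of the 3 genes, 0 were called in this comparison.

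The Mki67 difference depended on single libraries on both sides. Without MI2 it was 2.45 and its limma adjusted p 0.0491, just past the threshold, and without both MI2 and P699 the adjusted p was 0.0563. Without sham2 the difference was 0.79 (limma adjusted p 0.712), and without sham1 it was 3.18 (limma adjusted p 0.135). In these last fits the remaining sham library was assumed to vary like the other groups. Without MI162 or MI165 it was 1.51 or 1.56. Of 22 alternatives, 3 put Mki67 past the threshold, the others being DESeq2 on recovered reads (adjusted p 0.0373) and limma sample weights (adjusted p 0.0149), over a range of adjusted p from 0.0149 to 0.712.

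With the patch, Mki67 was at 163 ± 54.1 (SD, n = 4), lower than the MI mean, and all 4 Patch libraries lay below MI162 and MI165. MI1 and MI2 lay inside the Patch range of 112 to 231, so the groups overlapped. The comparison of Patch with MI asks which genes differ with the patch, and gave a log2 difference of −1.15 (SE 0.71, 95% interval −2.71 to 0.41, limma adjusted p 0.300). In that comparison 13.2% of the genes tested were called, and 0 of the 3 genes were among them; groups without overlap made up 17.6%. The 2251 called genes became 209 without P695, 292 without P985, 611 without P697, 649 without MI162, 1446 without sham1, 1440 without sham2 and 4821 without MI2. Without MI2 the difference was −1.62 (limma adjusted p 0.108), and without P699 −1.34 (limma adjusted p 0.289). It was −0.67 without MI162 (limma adjusted p 0.599) and −0.73 without MI165 (limma adjusted p 0.555). Mki67 passed the threshold in 3 of 22 alternatives, with adjusted p of 0.0467 in DESeq2, 0.0359 with limma sample weights and 0.0442 in edgeR without MI2, over a range from 0.0359 to 0.599.

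Patch was compared with sham to ask what still differed from surgery without an infarct. Mean Mki67 signal was 1.36 times that of sham, with a log2 difference of 0.83 (SE 0.87, 95% interval −1.08 to 2.75, limma adjusted p 1). Of the Patch libraries, 3 lay between sham2 and sham1, and P699 lay above both. Values of Patch and sham did not overlap in 18.5% of the genes, and overlapped for all 3 genes here. Groups separate by chance more often where a group has fewer libraries, as sham has. This share therefore cannot be set beside that of Patch and MI. In limma 0% of the genes were called here, while edgeR called 0 and DESeq2 15. Limma gave 524 genes (3.07%) an unadjusted p under 0.05, fewer than this cutoff passes on average when no gene differs. The share was 31.0% with MI set against sham and 30.6% with Patch set against MI. The Mki67 difference was 0.65 without P699 and 2.03 without sham1, and it turned to −0.36 without sham2. As a fold the interval runs from 0.473 to 6.72, so the data do not show that the groups were alike. In order of mean signal Mki67 ran from sham through Patch to MI, and no neighbours in that order differed beyond their spread.

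**Figure D2:**
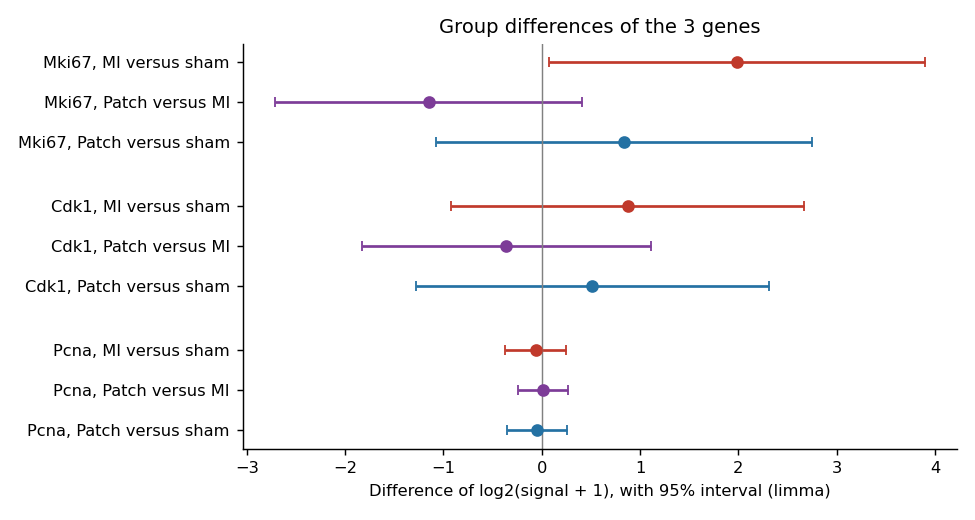
Difference of log2(signal + 1) between groups for each gene and comparison, with 95% intervals from limma fitted on 17091 genes in 10 libraries. The intervals of Mki67 and Cdk1 span several log2 units, and those of Pcna lie within −0.37 and 0.26.

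Cdk1 followed the same libraries as Mki67 at fewer reads. Its signal was 174 and 190 in MI162 and MI165, 49.7 in MI1 and 23.2 in MI2. In sham1 and sham2 it was 82.2 and 22.1, from 74 and 20 reads. In P695, P697, P699 and P985 it was 93.2, 44.7, 79.7 and 43.0. Again MI162 and MI165 were above the other 8 libraries, and MI2 was close to the lowest library, sham2. That pair of MI libraries was above the other 8 in 2504 of the 17091 genes (14.7%), a count made after the values of Mki67 had been seen, so the pattern is shared with many genes. The names of MI162 and MI165 have 3 digits, as those of all Patch columns do, and those of MI1, MI2 and the sham columns have 1. What the numbers stand for is not given in the sources used here, and their part in the split was not tested.

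Mean Cdk1 signal was 52.1 ± 42.5 (SD, n = 2) in sham, 65.1 ± 25.2 (SD, n = 4) in Patch and 109 ± 85.2 (SD, n = 4) in MI. MI was higher than sham by 0.87 on the log2 scale (SE 0.82, 95% interval −0.92 to 2.67, limma adjusted p 0.511). Patch differed from MI by −0.36 (SE 0.67, 95% interval −1.83 to 1.11, limma adjusted p 0.756) and from sham by 0.51 (SE 0.82, 95% interval −1.28 to 2.31, limma adjusted p 1). In each comparison the groups overlapped and the difference was smaller than the spread between libraries. Without MI2, MI was higher than sham by 1.45 (limma adjusted p 0.135) and Patch lower than MI (log2 −0.93, limma adjusted p 0.242). Without P699, Patch minus MI was −0.48 and Patch minus sham 0.39. Signs also turned with 1 library: MI minus sham was −0.053 without sham2, Patch minus MI was 0.018 without MI162 and 0.060 without MI165, and Patch minus sham was −0.41 without sham2. Without sham1 the differences from sham were larger, 1.80 for MI and 1.44 for Patch. Cdk1 passed the threshold in 0 of 22 alternatives in any comparison. The same order of means as for Mki67 was found, sham, Patch and MI, with no neighbours differing beyond their spread.

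Pcna, the replication clamp, was nearly level. Its signal was 768 and 732 in sham1 and sham2, 717, 655, 842 and 672 in MI1, MI2, MI162 and MI165, and 721, 674, 776 and 731 in P695, P697, P699 and P985. MI162 had the highest value of the 10, but MI165, in which Mki67 and Cdk1 were also high, had the second lowest. The highest library was 1.28 times the lowest, where this ratio was 25.2 for Mki67 and 8.64 for Cdk1.

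Group means of Pcna were 750 ± 25.6 (SD, n = 2) in sham, 726 ± 41.8 (SD, n = 4) in Patch and 721 ± 84.5 (SD, n = 4) in MI, and no neighbours in this order differed beyond their spread. In every comparison the groups overlapped. The log2 difference was −0.063 for MI minus sham (SE 0.14, 95% interval −0.37 to 0.24, limma adjusted p 0.796). It was 0.013 for Patch minus MI (SE 0.11, 95% interval −0.24 to 0.26, limma adjusted p 0.951) and −0.050 for Patch minus sham (SE 0.14, 95% interval −0.36 to 0.26, limma adjusted p 1). As folds, the intervals reach from 0.774 to 1.18 for MI over sham and from 0.849 to 1.20 for Patch over MI, which bounds any Pcna change far more closely than one of Mki67 (1.05 to 14.9 for MI over sham). Without MI2 the MI-minus-sham value was −0.019 and the Patch-minus-MI value −0.030, and without P699 Patch minus MI was −0.020 and Patch minus sham −0.083. The sign of each difference turned under some alternatives: with scaling to total reads MI minus sham became 0.18, where the median of all genes moved from 0.012 to 0.24.

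The genes differed in how much they varied within groups. The SD of log2(signal + 1) left after removing group means was 1.25 for Mki67, 1.13 for Cdk1 and 0.12 for Pcna, with a median of 0.40 over all genes tested. Of these genes 10.8% had a larger SD than Mki67, 14.2% a larger one than Cdk1 and 95.7% a larger one than Pcna. Such spread also depends on read count, and genes of like signal were not compared separately. Within groups, the SD of Mki67 was 1.69 in sham, 1.56 in MI and 0.47 in Patch. That of Cdk1 was 1.31, 1.45 and 0.56, and that of Pcna 0.049, 0.16 and 0.083, in the same order. For Mki67 and Cdk1 both sham and MI were thus more spread than Patch, the sham values coming from 2 libraries only. The sources of these spreads were not tested. For Mki67 the coefficient of variation within MI was 85.3%, where counting alone gives 4.01%. For Pcna these 2 values were 3.41% and 3.84% in sham, 11.7% and 3.40% in MI, and 5.76% and 3.82% in Patch.

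Mki67 and Cdk1 did not keep a fixed proportion to each other. The signal of Mki67 divided by that of Cdk1, a within-library ratio that is free of the scaling factor but not of gene length, was 2.45 and 1.70 in sham and 1.93, 2.88, 2.90 and 2.60 in P695, P697, P699 and P985. In MI1 it was 2.83, and in MI2, MI162 and MI165 it was 5.64, 5.41 and 4.41. Those 3 MI libraries therefore had more Mki67 signal per Cdk1 signal than any sham or Patch library, whereas MI1 lay below P697 and P699. The 3 were grouped after the ratios had been seen. In MI2 the ratio rests on 25 Cdk1 reads, and Mki67 itself was low there. In sham2 the ratio rests on 20 Cdk1 reads and 34 Mki67 reads. Mki67 divided by Pcna was 1.12 and 1.25 in MI162 and MI165 and 0.051 to 0.298 in the other 8 libraries.

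**Figure D3:**
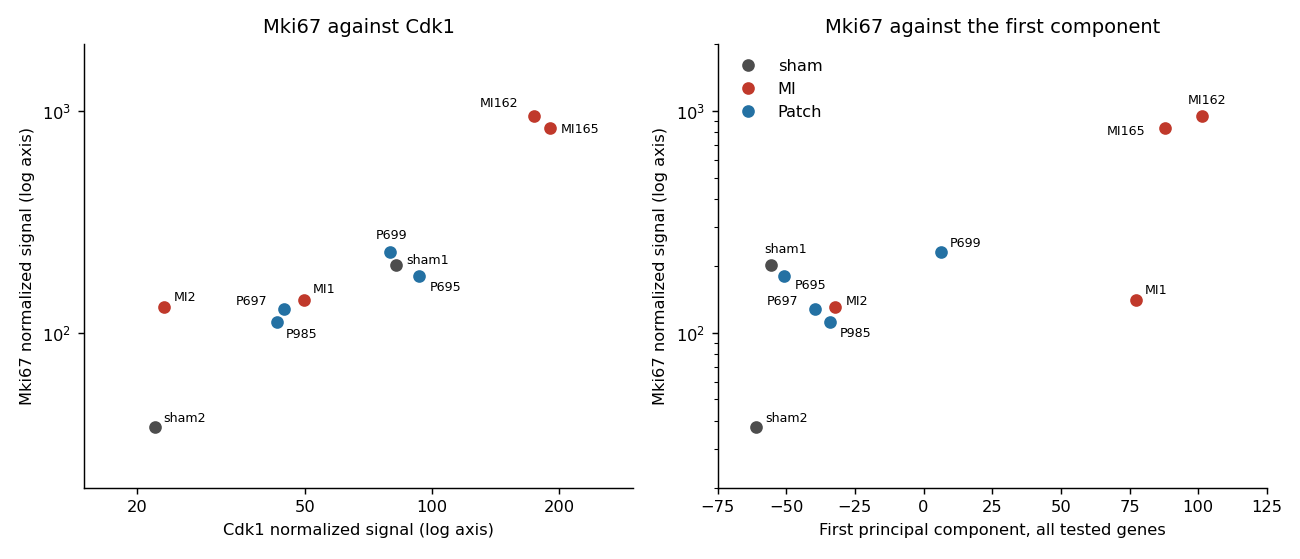
Mki67 signal (log axis) in each library against Cdk1 signal (log axis, left) and against the first principal component of all tested genes (right), coloured by group. MI162 and MI165 are set apart on both, and MI1 lies at 77.3 on the component, close to them, with a Mki67 signal of 141.

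The level of Mki67 and the overall position of a library parted in MI1. That library lay with MI162 and MI165 on the first principal component, at 77.3 against 101.5 and 87.8, yet its Mki67 signal of 141 was below that of sham1. MI2 lay close to P985 on that component, but apart from all other libraries on the second. P699, the Patch library nearest to MI1, MI162 and MI165 on the first component, had the highest Patch signal of Mki67 (231). It did not have that of Cdk1 (79.7, below P695). Each gene is 1 of the 17091 that define the components.

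The genes whose pattern was most like that of each gene were found by Pearson correlation of log2(signal + 1) over the 10 libraries, among 13941 other genes whose mean signal reached 10. This is a description of likeness only. The 10 libraries share groups and scaling. MI162 and MI165 may weigh heavily in it, and the correlations were not repeated without them. ENSRNOG00000020281 was the gene most like Mki67 (r = 0.979) and the second most like Cdk1 (r = 0.957), and 12 genes had an r above 0.95 with Mki67. Its signal was 86.6 and 20.9 in sham, 64.8, 45.5, 236 and 209 in MI1, MI2, MI162 and MI165, and 52.2 to 95.5 in Patch. Chosen for its likeness over these libraries, it had the same high pair and the same low sham library as Mki67. ENSRNOG00000056069 was most like Cdk1 (r = 0.957). Its signal was 64.4 and 11.0 in sham, 63.2, 11.2, 262 and 155 in MI1, MI2, MI162 and MI165, and 39.1 to 66.3 in Patch. In this one, chosen in the same way, sham2 and MI2 were lowest as for Cdk1, and MI162 and MI165 highest.

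Among those 13941 genes, Cdk1 ranked 57 in likeness to Mki67, and Mki67 ranked 19 in likeness to Cdk1 (r = 0.915 for the pair). Pcna ranked 5280 for Mki67 (r = 0.297) and 3781 for Cdk1 (r = 0.417). The highest r of any gene with Pcna was 0.93. In likeness to Pcna, Cdk1 ranked 1330 (within the nearest 9.54% of genes) and Mki67 2647 (19%). Mki67 and Cdk1 thus ranked nearer to each other than either did to Pcna, in both directions. Other genes of DNA replication and mitosis were not analysed here, since IDs are listed without symbols.

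**Figure D4:**
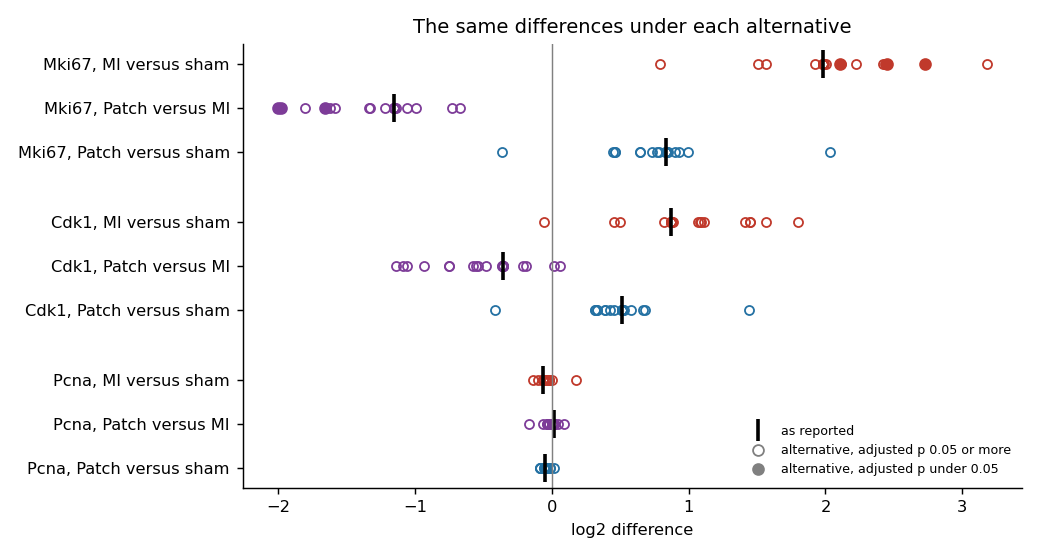
The log2 difference of each gene and comparison as reported (black bars) and under 22 alternatives each (circles, filled where the adjusted p was under 0.05). Filled circles occur for Mki67 in MI versus sham and in Patch versus MI, and the Pcna values stay between −0.17 and 0.18.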

How the data were processed

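Polyadenylated RNA was sequenced from rat hearts, per the labels' protocols. The authors deposited 1 table of normalized signal, with 1 column per library. HISAT2, SAMtools, featureCounts, DESeq2 and the build rn6 are named in the submitters' processing notes, with no versions or roles; annotation and strand setting are not given in the sources used here. In each column the deposited signal values were whole multiples of 1 step, so reads were recovered by dividing by it (100% of values within 0.01 of a whole number). Columns were matched to groups by name, P to Patch, and 2 other columns, ctrl1 and ctrl2, were not used because their names match no label; the planned 12 libraries became 10. Whether they hold the other 2 sham samples is not stated.

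The 17091 genes whose mean signal reached 1, all 3 members among them, entered the limma test (version 3.58.1, R 4.3.3) on the log2 scale of signal plus a pseudocount of 1, with a mean-variance trend, all 3 groups in 1 fit, two-sided, and Benjamini-Hochberg adjustment over all genes at a threshold of 0.05. This scale understates changes of low genes. Alternatives used edgeR 4.0.16 and DESeq2 1.42.0 on recovered reads, pseudocounts of 0.5 and 5, other filters and scalings, sample weights, only the groups compared, and each library left out. The limma and edgeR fits were also run on simulated data. The simulation held no library set apart from its group as MI2 was, so it says nothing about the dependence on single libraries. Figures used matplotlib 3.10.9.

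The members, gene lists and tests were chosen with earlier results of these data known. The genes named are the 3 members and, as no more than 2 IDs could be printed, the genes most like Mki67 and Cdk1. Of the table's IDs, 0 matched the gene table used here, so the pathway and marker lists were not analysed here. Promoters were matched by symbol (3 of 3) to RefSeq sequences on GRCr8.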

Additional observations from a re-analysis of the deposited data

Results flagged for a closer look

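Of 12 sets of 4 values checked for a library far from the others (the signal of each gene, the ratio of Mki67 to Cdk1, genes at 0 and total reads, in MI and in Patch), 1 had one, where chance gives about 1 in 20. MI2 had 5474 genes at 0, against 2736 in the next MI library. Its signal of Mki67 (131), Cdk1 (23.2) and Pcna (655) was the lowest of the 4 MI libraries for each gene, by gaps that did not stand out in this check.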

How the results depend on the processing

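No paired analysis was possible because the column numbers could not be taken as the labels' replicate numbers: sham1, sham2, MI1 and MI2 share the numbers 1 and 2, but MI162, MI165 and the Patch columns have numbers that no label gives. The replicate block was not run. The edgeR fit without MI2 was chosen after seeing the data. For MI versus sham, Mki67 was 2.10 in DESeq2 and 2.73 with sample weights, against 1.98 as reported. For Patch versus MI it was −1.66 in DESeq2, −2.0 with sample weights and −1.98 in edgeR without MI2, against −1.15. These passed the threshold; the cause was not tested. Pcna changed sign for MI versus sham with total reads (0.18) and in edgeR without MI2 (0.0016), and for Patch versus sham with total reads (0.014). For Patch versus MI it did so with total reads (−0.17), sample weights (−0.038), without both MI2 and P699 (−0.063) and in edgeR without MI2 (−0.038).

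Leaving out 1 library gave, for MI versus sham, 0.79 to 3.18 for Mki67, −0.053 to 1.80 for Cdk1 and −0.14 to −0.019 for Pcna. For Patch versus MI it gave −1.62 to −0.67, −0.93 to 0.060 and −0.030 to 0.090, and for Patch versus sham −0.36 to 2.03, −0.41 to 1.44 and −0.084 to −0.015. Under the remaining alternatives each of the 9 differences kept its sign and its side of the threshold, but some changed in size. Other filters and fits of only the groups compared cannot alter a limma difference, only its SE and p-value. The same holds for leaving out a library of a group not compared, so the kept sign was fixed in advance in these fits. Cdk1 for Patch versus MI was −0.75 in edgeR and in DESeq2, −1.14 with sample weights and −1.08 in edgeR without MI2, against −0.36 as reported. For MI versus sham Cdk1 was 1.57 with sample weights, against 0.87. For Patch versus sham, edgeR and DESeq2 gave 0.46 and 0.45 for Mki67, against 0.83, and 0.33 and 0.32 for Cdk1, against 0.51.

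The 2636 genes called for MI versus sham became 599 with only these groups, 5679 with sample weights, 4867 without MI2 and P699, 4687 in edgeR without MI2, and 7 to 4979 with 1 library left out. The 2251 for Patch versus MI became 1437, 5383, 4856 and 4643, 3679 in DESeq2, and 209 to 4821. Patch versus sham gave 10 with sample weights, 15 in DESeq2 and 2 without P695. Scaling to total reads put the share of higher calls at 73.5% for MI versus sham (47.3% as reported) and at 30.2% for Patch versus MI (58.6% as reported). With only the groups compared and the scaling unchanged, the former was 73.0%, 437 of 599. Of the 3 genes Cdk1 had the fewest reads, 20 to 234 per library, against 34 to 1136 for Mki67 and 604 to 1014 for Pcna, so counting error was largest for Cdk1.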
